A study of Homo sapiens with 9 samples.

Results

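The genes described here are those of the matrix metalloproteinases (MMP), the ADAM proteases, the ADAMTS proteases and the tissue inhibitors of metalloproteinases (TIMP) in U-373MG cells. They were taken by symbol as MMP, ADAM or ADAMTS followed by a number, and TIMP1 to TIMP4, which gave 67 genes of the 24462 symbols in the count files. The 67 comprised 22 MMP, 22 ADAM, 19 ADAMTS and 4 TIMP genes, and each had 1 entry per file. The study compared 3 groups of 3 libraries of this human line, which the labels call both glioblastoma and astrocytoma. Cells of the first group were given CBRV1-10493 and cells of the second NnK-1, each a synthetic jellyfish peptide of the ShK-like kind, at 200 nM for 48 h. The third group was an untreated control shared by both comparisons, with no time recorded in its labels. Replicates are biological in the design text, which does not say whether they were separate cultures, so p-values measure only the spread between these libraries. Cultures sold under the name U-373MG have been found to be another glioma line, and the labels do not say how the stock was authenticated.

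Library totals ran between 11203094 and 13491075 counts, and 13676 genes passed the filter on low counts. CPM is the count divided by the library total and multiplied by 1e+06. Of 12 astrocytic and glioma markers, 9 were tested, led by VIM at 5576 CPM and NES at 1434 CPM in control libraries, while ALDH1L1 had no read and AQP4 and CHI3L1 had 4 reads each over 9 libraries. The summed astrocytic and glioma markers were between 9070 and 10800 CPM in CBRV1-10493 libraries, between 7450 and 11100 CPM in NnK-1 libraries and between 9070 and 10300 CPM in control libraries. The summed markers of leukocytes and microglia stayed between 3.30 and 8.89 CPM and those of endothelium between 0.893 and 3.79 CPM over all libraries, with CX3CR1, TEK and CLDN5 at no read. Neuronal markers summed to between 173 and 214 CPM, nearly all from MAP2, and oligodendrocyte markers to between 44.9 and 54.6 CPM, with MBP the highest of them. On the first principal component of all tested genes, NnK-1 replicate 2 stood apart from the other libraries, and on the second CBRV1-10493 replicate 1 did. With edgeR's quasi-likelihood test and Benjamini-Hochberg adjustment, no gene passed an adjusted p of 0.05 in any of the 3 comparisons. At an unadjusted p of 0.05 there were 1002 genes for NnK-1 against control, 395 for CBRV1-10493 against control and 589 for CBRV1-10493 against NnK-1, and DESeq2 on the filtered genes called 3, 0 and 0 after adjustment.

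MMPs are zinc proteases that cut collagens, laminins, proteoglycans and cell-surface proteins. Most are secreted as inactive proenzymes, and the membrane-type MMPs stay at the cell surface, where MMP14 activates proMMP2 with the help of TIMP2. ADAMs are membrane-bound proteases that release the outer parts of growth factors, receptors and adhesion proteins, a step called shedding, and ADAMTS proteases are secreted enzymes that cut matrix proteoglycans and process procollagen. TIMPs bind and block these enzymes, TIMP3 with the broadest reach over ADAM and ADAMTS members. In glioma this system is known for its part in the spread of tumour cells through brain matrix.

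On chromosome 11, 9 of the MMP genes are neighbours, in the order MMP7, MMP20, MMP27, MMP8, MMP10, MMP1, MMP3, MMP12 and MMP13. MMP7 had 1712 reads over the 9 libraries and the other 8 together had 20. The 250 bases before the annotated start are shown for MMP7, MMP10 and MMP20 because these neighbours match the same pair of search patterns and differ in reads. Those of ADAM15 and ADAMTS6 are shown because these had the smallest p-values against control among the 67 genes. The sequences come from RefSeq on GRCh38.p14, whereas the counts were made on hg19, and that table holds promoters of 38 of the 67 genes. Capitals mark 3 motifs searched on both strands. They are TGANTCA (a loose form of the AP-1 site in which N is any base), TATAAA (the TATA box) and GGGCGG (a GC box). The GC box is written CCGCCC where it lies on the other strand.
MMP7 (chr11:102530748-102530997, minus strand): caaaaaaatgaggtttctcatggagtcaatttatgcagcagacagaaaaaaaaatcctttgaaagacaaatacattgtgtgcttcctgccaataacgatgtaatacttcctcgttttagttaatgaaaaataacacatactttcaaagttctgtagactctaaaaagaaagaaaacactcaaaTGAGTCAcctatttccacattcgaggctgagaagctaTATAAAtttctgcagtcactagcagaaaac
MMP10 (chr11:102780629-102780878, minus strand): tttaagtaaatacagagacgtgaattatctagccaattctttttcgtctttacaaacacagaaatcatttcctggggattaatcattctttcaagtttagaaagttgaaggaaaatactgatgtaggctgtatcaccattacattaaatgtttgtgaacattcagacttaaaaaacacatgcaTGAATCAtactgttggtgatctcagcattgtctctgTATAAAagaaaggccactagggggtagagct
MMP20 (chr11:102625333-102625582, minus strand): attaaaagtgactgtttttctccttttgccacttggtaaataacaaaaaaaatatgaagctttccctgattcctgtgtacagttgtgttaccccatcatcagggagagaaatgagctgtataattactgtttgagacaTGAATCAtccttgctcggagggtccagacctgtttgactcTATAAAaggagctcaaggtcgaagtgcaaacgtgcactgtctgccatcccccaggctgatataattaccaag
ADAM15 (chr1:155051066-155051315, plus strand): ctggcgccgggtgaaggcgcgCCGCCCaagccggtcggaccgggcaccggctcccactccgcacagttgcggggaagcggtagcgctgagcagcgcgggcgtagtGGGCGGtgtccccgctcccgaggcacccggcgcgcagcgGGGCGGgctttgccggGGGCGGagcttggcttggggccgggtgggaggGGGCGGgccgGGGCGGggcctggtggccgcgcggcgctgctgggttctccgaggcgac
ADAMTS6 (chr5:65481921-65482170, minus strand): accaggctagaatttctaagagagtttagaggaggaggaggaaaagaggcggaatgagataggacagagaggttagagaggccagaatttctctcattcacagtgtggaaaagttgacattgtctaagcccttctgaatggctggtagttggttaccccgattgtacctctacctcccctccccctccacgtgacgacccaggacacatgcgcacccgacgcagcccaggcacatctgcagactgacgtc
The TGANTCA match starts at position -67 in MMP7, -67 in MMP10 and -112 in MMP20, counted back from the annotated start. It reads TGAGTCA in MMP7 but TGAATCA in MMP10 and MMP20, so the site is not the same in its middle base. The TATAAA motif starts at -30 in MMP7, -31 in MMP10 and -72 in MMP20. Of 27305 promoters of this length in the table, 6.6% hold TGANTCA, 11.1% hold TATAAA and 42.3% hold GGGCGG. MMP7 had 1712 reads, against 1 read for MMP10 and 2 reads for MMP20, and these 3 windows were chosen for holding matches to both patterns. Of the other neighbours in the table, MMP8 holds TATAAA but not TGANTCA, MMP27 holds neither, and both had no read. The ADAM15 window holds 6 GC boxes and neither of the other motifs, and the ADAMTS6 window holds none of the 3. A match describes the letters in the window and does not show binding.

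Of the 67 genes, 34 passed the filter and were tested, 20 had reads but too few to be tested, and 13 had no read in any library. The tested genes were 10 MMP, 9 ADAM, 11 ADAMTS and 4 TIMP genes. Libraries were made from the 3′ ends of transcripts, so that counts do not grow with transcript length and CPM can be set side by side between genes, apart from differences in how well each 3′ end was captured. In bulk RNA, fewer cells that express a gene and less RNA per cell cannot be told apart. In control libraries, 6 of the 67 genes averaged 100 CPM or more, 14 averaged 20 CPM or more and 30 averaged 1 CPM or more.

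**Figure D1:**
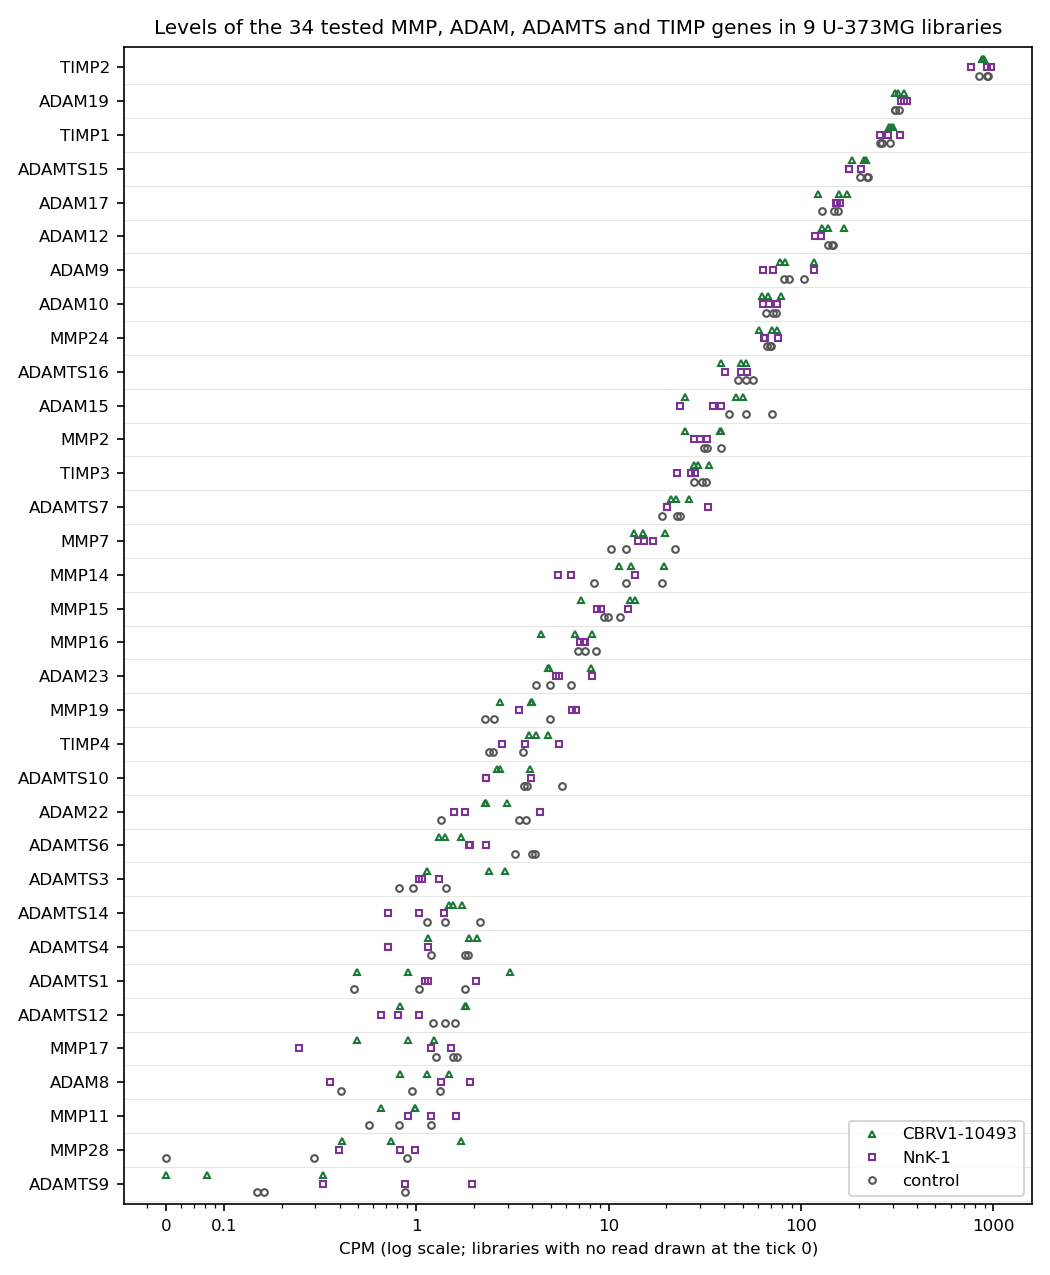
CPM on a log axis for each of the 34 tested genes (rows, from the highest mean level over 9 libraries down), with 3 libraries each of CBRV1-10493 (triangles), NnK-1 (squares) and control (circles). TIMP2 lies above every other gene in every library, and for most genes the symbols of the 3 groups lie over each other.

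TIMP2 was the most abundant of the 67 genes. This inhibitor, which blocks MMPs and also bridges MMP14 to proMMP2, had 892, 875 and 885 CPM in CBRV1-10493 libraries, 766, 925 and 969 CPM in NnK-1 libraries and 841, 922 and 933 CPM in control libraries. TIMP1, a secreted inhibitor of most soluble MMPs, had 300.4, 285 and 293 CPM in CBRV1-10493 libraries, 258, 325 and 284 CPM in NnK-1 libraries and 259, 264 and 289 CPM in control libraries. In both genes the 3 groups overlapped, and NnK-1 replicate 1 held the lowest value. TIMP3, the inhibitor bound to matrix, was lower in level, at 33.4, 29.3 and 27.7 CPM in CBRV1-10493 libraries, 26.8, 22.7 and 28.2 CPM in NnK-1 libraries and 31.9, 27.9 and 30.5 CPM in control libraries. TIMP4 averaged 4.31 ± 0.517 CPM in CBRV1-10493 libraries, 3.99 ± 1.38 CPM in NnK-1 libraries and 2.83 ± 0.653 CPM in control libraries (SD, n = 3 each). TIMP2 alone made up between 72.4% and 75.8% of the summed TIMP level in each library.

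Among the ADAMs, 7 of the 12 with a working catalytic site in their known protein were tested, against 2 of the 8 without one. ADAM19, known for shedding neuregulins, was the most abundant protease among the 67 genes, with 344, 319.5 and 309.6 CPM in CBRV1-10493 libraries, 331.5, 358 and 342 CPM in NnK-1 libraries and 308.5, 322 and 308 CPM in control libraries. ADAM17, the main sheddase of TNF and of ligands of the EGF receptor, had 174, 157 and 123 CPM in CBRV1-10493 libraries, 160.4, 154 and 153 CPM in NnK-1 libraries and 129, 155.5 and 148 CPM in control libraries. ADAM12, which cuts HB-EGF and some matrix proteins, had 129, 167 and 138 CPM in CBRV1-10493 libraries, 118, 126.5 and 128 CPM in NnK-1 libraries and 146, 146 and 139 CPM in control libraries. CBRV1-10493 replicate 2 was the highest library for ADAM12, and all 3 NnK-1 libraries lay below all 6 others. ADAM9, another sheddase, had 83.0, 77.9 and 116.5 CPM in CBRV1-10493 libraries, 117, 63.4 and 71.3 CPM in NnK-1 libraries and 104, 81.5 and 87.1 CPM in control libraries. ADAM10, which cuts Notch receptors and N-cadherin, overlapped between groups, at 78.4, 62.4 and 67.1 CPM in CBRV1-10493 libraries, 68.1, 63.6 and 75.4 CPM in NnK-1 libraries and 65.5, 71.5 and 74.6 CPM in control libraries. ADAM8, a catalytic ADAM best known from immune cells, averaged 1.15, 1.20 and 0.898 CPM over CBRV1-10493, NnK-1 and control libraries. The non-catalytic ADAM23 and ADAM22, which serve as receptors of LGI proteins at synapses, averaged 5.93 and 2.53 CPM in CBRV1-10493 libraries, 6.37 and 2.58 CPM in NnK-1 libraries and 5.20 and 2.83 CPM in control libraries.

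Among the MMPs, the membrane-type genes were the best represented, with 5 of 6 tested, and no collagenase of 3 was tested. MMP24, the membrane-type MMP found mainly in neural tissue, had 71.1, 60.8 and 75.0 CPM in CBRV1-10493 libraries, 64.0, 75.8 and 65.1 CPM in NnK-1 libraries and 70.1, 68.9 and 66.9 CPM in control libraries. It made up between 39.4% and 48.6% of the summed MMP level. MMP24 overlaps MMP24-AS1, which averaged 192.5 CPM over the 9 libraries against 68.6 CPM for MMP24. The sources used here do not say whether counting used strand, so it is not known whether reads of these 2 genes were kept apart. MMP2, the gelatinase that cuts type IV collagen and gelatin, had 25.0, 37.8 and 38.2 CPM in CBRV1-10493 libraries, 32.4, 30.0 and 27.7 CPM in NnK-1 libraries and 38.2, 32.4 and 31.3 CPM in control libraries. MMP9, the other gelatinase, had 14 reads over all 9 libraries, of which 5 were in CBRV1-10493, 2 in NnK-1 and 7 in control libraries. The 3 genes of the complex that activates proMMP2, MMP2 itself, MMP14 and TIMP2, were all tested, and TIMP2 had the highest level of the 3 in every library.

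MMP7, a small secreted protease without the hemopexin domain, averaged 16.1 ± 3.13 CPM in CBRV1-10493 libraries, 15.5 ± 1.35 CPM in NnK-1 libraries and 14.9 ± 6.40 CPM in control libraries (SD, n = 3 each). Control replicate 2 carried 280 MMP7 reads, against 151 and 139 in the other control libraries. MMP15 and MMP16, membrane-type enzymes like MMP14, averaged 11.3 and 6.45 CPM in CBRV1-10493 libraries, 10.2 and 7.39 CPM in NnK-1 libraries and 10.3 and 7.69 CPM in control libraries. MMP17, which is held in the membrane by a lipid anchor, averaged 0.880, 0.987 and 1.48 CPM over CBRV1-10493, NnK-1 and control libraries. MMP19 averaged 3.57, 5.54 and 3.26 CPM, MMP11, a stromelysin activated inside the cell by furin, 0.879, 1.24 and 0.858 CPM, and MMP28 0.959, 0.735 and 0.397 CPM over the same 3 groups. These low members had few reads, and MMP28 had none in control replicate 2.

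The ADAMTS family rested on ADAMTS15, a protease of versican and aggrecan. ADAMTS15 had 184, 213 and 217 CPM in CBRV1-10493 libraries, 178, 178.5 and 206 CPM in NnK-1 libraries and 202, 219.7 and 224 CPM in control libraries, and made up between 64.8% and 72% of the summed ADAMTS level. ADAMTS16, known for cutting fibronectin, had 38.5, 48.6 and 51.8 CPM in CBRV1-10493 libraries, 40.4, 52.4 and 48.8 CPM in NnK-1 libraries and 47.1, 56.5 and 52.1 CPM in control libraries. ADAMTS7, a protease of cartilage oligomeric matrix protein, had 22.4, 21.1 and 26.2 CPM in CBRV1-10493 libraries, 20.2, 32.9 and 20.1 CPM in NnK-1 libraries and 18.9, 22.8 and 23.6 CPM in control libraries. In all 3 the groups overlapped, and NnK-1 replicate 2 was the highest library for ADAMTS7. ADAMTS7 has a near copy, ADAMTS7P1, which averaged 5.19 CPM, and reads could be split between them. The procollagen N-proteinases ADAMTS3 and ADAMTS14 averaged 2.15 and 1.59 CPM in CBRV1-10493 libraries, 1.14 and 1.05 CPM in NnK-1 libraries and 1.07 and 1.56 CPM in control libraries. ADAMTS10, which binds fibrillin microfibrils, averaged 3.10, 2.86 and 4.39 CPM over CBRV1-10493, NnK-1 and control libraries. The proteoglycanases ADAMTS4 and ADAMTS1 averaged 1.70 and 1.49 CPM in CBRV1-10493 libraries, 0.862 and 1.44 CPM in NnK-1 libraries and 1.61 and 1.10 CPM in control libraries, and ADAMTS12 averaged 1.48, 0.833 and 1.41 CPM over the same groups.

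By mean level over the 9 libraries the order began with TIMP2 (889.5 CPM), ADAM19 (327 CPM), TIMP1 (284 CPM), ADAMTS15 (202.5 CPM), ADAM17 (150.3 CPM) and ADAM12 (137.5 CPM). Of the neighbours in this order, the ranges of TIMP2 and ADAM19, TIMP1 and ADAMTS15, ADAMTS15 and ADAM17, ADAM12 and ADAM9, and MMP24 and ADAMTS16 did not overlap between libraries. The ranges of all other neighbouring pairs did. Within libraries, ADAM19 was above TIMP1 in 9 of 9, ADAM9 above ADAM10 in 7 and ADAM17 above ADAM12 in 6. Several of these genes share their locus with another gene. TIMP1 lies in SYN1, which averaged 2.48 CPM, while SYN3 and SYN2, around TIMP3 and TIMP4, had no read. IAH1, which overlaps ADAM17, averaged 26.2 CPM, and TM2D2, which overlaps ADAM9, averaged 31.8 CPM.

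The genes that were not tested include MMP9, the secreted collagenases and most stromelysins. Of the collagenases, MMP1 had 7 reads and MMP13 had 2 reads over all 9 libraries, and MMP8 had none. Of the stromelysins, MMP3 had 8 reads and MMP10 had 1. MMP25, a membrane-type MMP of leukocytes, had 25 reads, 10 of them in CBRV1-10493 replicate 1, and MMP21 and MMP20, the tooth enamel protease, had 5 and 2. ADAM32 had 67 reads, ADAM11 51, ADAM20 31, ADAM28 25, ADAM21 10 and ADAM33 3. ADAMTS8 had 55 reads, ADAMTS20 27, ADAMTS13, the protease of von Willebrand factor, 16, ADAMTS2 6, ADAMTS5 4 and ADAMTS17 2. The 13 genes with no read were MMP8, MMP12, MMP26, MMP27, ADAM2, ADAM5, ADAM6, ADAM7, ADAM18, ADAM29, ADAM30, ADAMTS18 and ADAMTS19. Among these, ADAM2, ADAM18, ADAM29 and ADAM30 are known from testis, and ADAM5 and ADAM6 are pseudogenes in human. For a gene with no read in a group, 3 counts over that group bound the level at 0.0824 CPM in CBRV1-10493, 0.0836 CPM in NnK-1 and 0.0781 CPM in control libraries, with respect to counting error.

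MMP genes summed to 158 ± 12.6 CPM in CBRV1-10493 libraries, 149 ± 6.76 CPM in NnK-1 libraries and 155 ± 10.7 CPM in control libraries (SD, n = 3 each). ADAM genes summed to 834 ± 14.8 CPM in CBRV1-10493, 819.9 ± 24.5 CPM in NnK-1 and 828 ± 15.8 CPM in control libraries. ADAMTS genes summed to 288 ± 25.2 CPM in CBRV1-10493, 271 ± 19.5 CPM in NnK-1 and 305 ± 18.4 CPM in control libraries. TIMP genes summed to 1211 ± 18.0 CPM in CBRV1-10493, 1205 ± 129 CPM in NnK-1 and 1202 ± 61.3 CPM in control libraries. The summed TIMP level over the summed MMP level was 7.70 ± 0.651 in CBRV1-10493, 8.11 ± 0.955 in NnK-1 and 7.78 ± 0.924 in control libraries. In all 4 families and in this ratio the 3 groups overlapped. The sum over all 63 protease genes was 1252, 1291 and 1297 CPM in CBRV1-10493 libraries, 1244, 1228 and 1248 CPM in NnK-1 libraries and 1284, 1315 and 1269 CPM in control libraries, so that all 3 NnK-1 libraries lay below all 6 others. On TMM-scaled CPM, a scaling applied to this sum after seeing the data, it was 1262.5, 1290.2 and 1289.5 in CBRV1-10493 libraries, 1230.4, 1265.9 and 1257.9 in NnK-1 libraries and 1265.5, 1298.7 and 1266.1 in control libraries. There NnK-1 replicate 2 lay above the lowest library of each other group, and the groups overlapped.

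**Figure D2:**
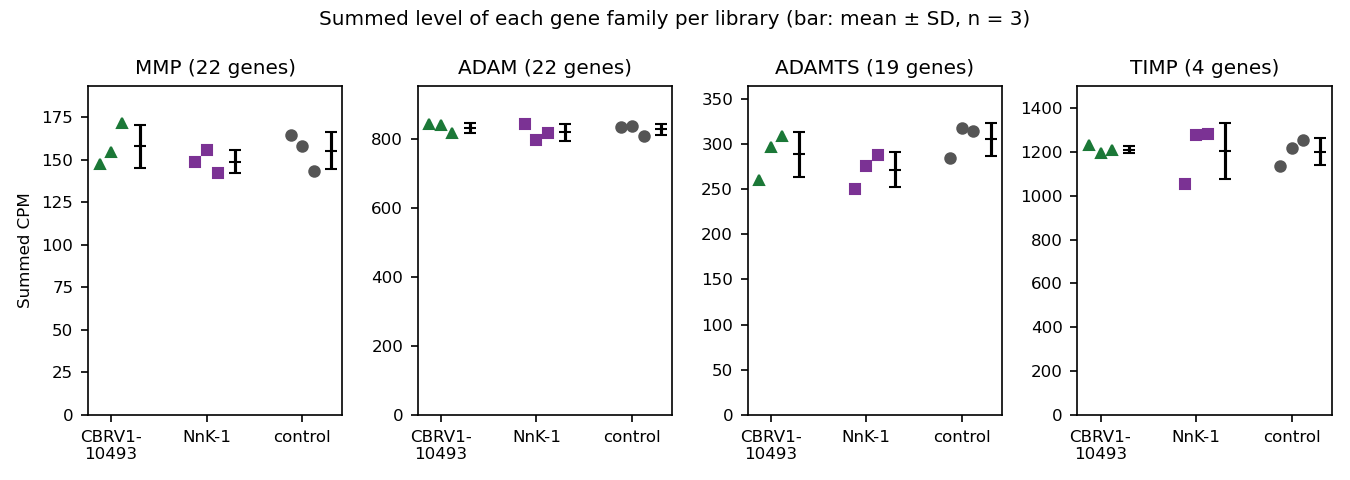
Summed CPM of each family in each library, with 1 panel per family and axes from 0. Symbols are libraries (CBRV1-10493, NnK-1, control from left to right) and bars the mean ± SD of 3 libraries. The groups overlap in every panel, and the lowest TIMP sum is NnK-1 replicate 1 at 1056 CPM.

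For NnK-1 against control, none of the 34 tested genes passed an adjusted p of 0.05 with edgeR's quasi-likelihood test, where 0% of the 13676 tested genes passed, and 1 had an unadjusted p under 0.05, where 7.33% of all tested genes did (3.76% higher and 3.57% lower). Limma-voom called none of the 34 after adjustment. DESeq2 gave an adjusted p to only 9 of the 34 here and called none of those, and it gave none to ADAM15, ADAMTS6, MMP19 or MMP14. The gene was ADAM15, lower in NnK-1, which carries an integrin-binding RGD motif next to its protease domain. It had 38.5, 23.6 and 35.0 CPM in NnK-1 libraries, against 70.5, 51.9 and 42.5 CPM in control libraries. All 3 NnK-1 libraries were below all 3 control libraries. The log2 fold change was -0.74 (95% interval -1.20 to -0.28) with an adjusted p of 0.577 from edgeR's quasi-likelihood test, and its p ranked 73 among the 13676 tested genes. The levels of ADAM15 moved between libraries of a group too, since control replicate 1 had 867 reads and control replicate 3 had 573. Without control replicate 1 the log2 fold change was -0.52. Without the filter on low counts ADAM15 had an adjusted p of 0.00077, in a fit whose prior degrees of freedom were infinite, against 13.7 with the filter, so that each gene's own spread no longer counted there. ADAM15 overlaps the readthrough transcript ADAM15-EFNA4, and the sources used here do not say how reads of that transcript were counted.

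ADAMTS6, a protease linked to fibrillin microfibrils and heart development, had 24, 21 and 28 reads in NnK-1 libraries, against 49, 52 and 44 reads in control libraries. Its log2 fold change was -0.87 (95% interval -1.79 to 0.05, adjusted p = 0.688 with edgeR). Every NnK-1 library was below every control library. MMP19, a secreted MMP that cuts basement membrane proteins, had 43, 72 and 82 reads in NnK-1 libraries, against 28, 32 and 67 reads in control libraries and a log2 fold change of 0.79 (95% interval -0.05 to 1.62, adjusted p = 0.69 with edgeR). The groups overlapped, and without control replicate 3 the log2 fold change was 1.23.

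The 6 most abundant genes had narrow intervals in this comparison. The log2 fold change was 0.01 for TIMP2 (95% interval -0.19 to 0.20), 0.12 for TIMP1 (-0.09 to 0.33) and 0.16 for ADAM19 (-0.02 to 0.35). For ADAMTS15 it was -0.17 (-0.38 to 0.03), for ADAM17 0.14 (-0.11 to 0.39) and for ADAM12 -0.18 (-0.40 to 0.04). Each of these intervals includes 0, and the farthest bounds are -0.40 and 0.39. Over all genes with a mean of 20 CPM or more, 14 in number, either bound of the interval lay between 0.183 and 0.463 from the estimate, while for the 3 genes under 1 CPM it lay between 1.41 and 2.06 away. Without NnK-1 replicate 2 the log2 fold change of TIMP1 was 0.01, and without NnK-1 replicate 1 it was 0.21. That of ADAM17 was 0.06 without control replicate 1.

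Groups did not overlap for 7 of the 34 genes in NnK-1 against control, where 12.9% of all tested genes did not overlap. ADAM19 and ADAM17 were the 2 with all NnK-1 libraries above control, on TMM-scaled CPM, where 6.07% of all tested genes were, although ADAM17 overlapped on unscaled CPM. ADAM15, ADAMTS6, ADAM12, ADAMTS4 and ADAMTS12 were the 5 with all NnK-1 libraries below control, where 6.79% of all tested genes were. The median log2 fold change of the 34 genes was 0.001, against 0.003 over all tested genes, with 17 above 0 and 17 below. With each library left out in turn the filter was run again, 35 or 36 members passed it, and their median lay between -0.05 and 0.01. It was -0.02 over 36 members without CBRV1-10493 replicate 1, a library outside this comparison. These medians are therefore not of the same 34 genes.

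For CBRV1-10493 against control, no tested gene of the 34 passed an adjusted p of 0.05 with edgeR's quasi-likelihood test, where 0% of all tested genes passed, and 1 had an unadjusted p under 0.05, where 2.89% of all tested genes did (1.34% higher and 1.55% lower). DESeq2 and limma-voom called none of the 34 either. The gene was ADAMTS6, lower in CBRV1-10493. It had 17, 21 and 16 reads in CBRV1-10493 libraries, against 49, 52 and 44 reads in control libraries, and averaged 1.48 ± 0.210 CPM against 3.79 ± 0.464 CPM (SD, n = 3 each). All 3 CBRV1-10493 libraries were below all 3 control libraries. The log2 fold change was -1.33 (95% interval -2.27 to -0.39) with an adjusted p of 1.00 from edgeR's quasi-likelihood test, and its p ranked 42 among the 13676 tested genes. Leaving out each library in turn gave log2 fold changes between -1.45 and -1.26. The counts are low, at 272 reads over 9 libraries, and this comparison shares its control libraries with that of NnK-1.

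ADAM15 had 24.9, 46.0 and 50.2 CPM in CBRV1-10493 libraries, against the 70.5, 51.9 and 42.5 CPM of control libraries. The log2 fold change was -0.43 (95% interval -0.89 to 0.03, adjusted p = 1.00 with edgeR). The groups overlapped, and the log2 fold change was -0.18 without CBRV1-10493 replicate 1, the lowest of these libraries. Control replicate 1, at 70.5 CPM, was the highest of them. ADAMTS3, which processes type II procollagen and VEGFC, had 29, 14 and 35 reads in CBRV1-10493 libraries, against 10, 18 and 13 reads in control libraries and a log2 fold change of 1.01 (95% interval -0.25 to 2.28, adjusted p = 1.00 with edgeR). CBRV1-10493 replicate 2 lay within the control range.

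Of the 6 most abundant genes, the log2 fold change of CBRV1-10493 against control was -0.01 for TIMP2 (95% interval -0.20 to 0.19), 0.07 for ADAM19 (-0.12 to 0.25) and 0.13 for TIMP1 (-0.08 to 0.34). It was -0.06 for ADAMTS15 (-0.26 to 0.15), 0.09 for ADAM17 (-0.16 to 0.33) and 0.03 for ADAM12 (-0.19 to 0.25). Every one of these intervals includes 0. Groups did not overlap for 3 of the 34 genes, where 8.96% of all tested genes did not overlap. TIMP4 was the 1 gene with all CBRV1-10493 libraries above control, where 4.53% of all tested genes were, and ADAMTS6 and MMP17 were the 2 with all below, where 4.43% were. The median log2 fold change of the 34 genes was 0.04, against 0.003 over all tested genes, with 23 above 0 and 11 below. Filtered again without CBRV1-10493 replicate 1, 36 members passed and their median was -0.03. Without CBRV1-10493 replicate 3 it was -0.02, also over 36 members. These sets are not the same 34 genes, and the part of the left-out library in the change of sign was not tested.

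**Figure D3:**
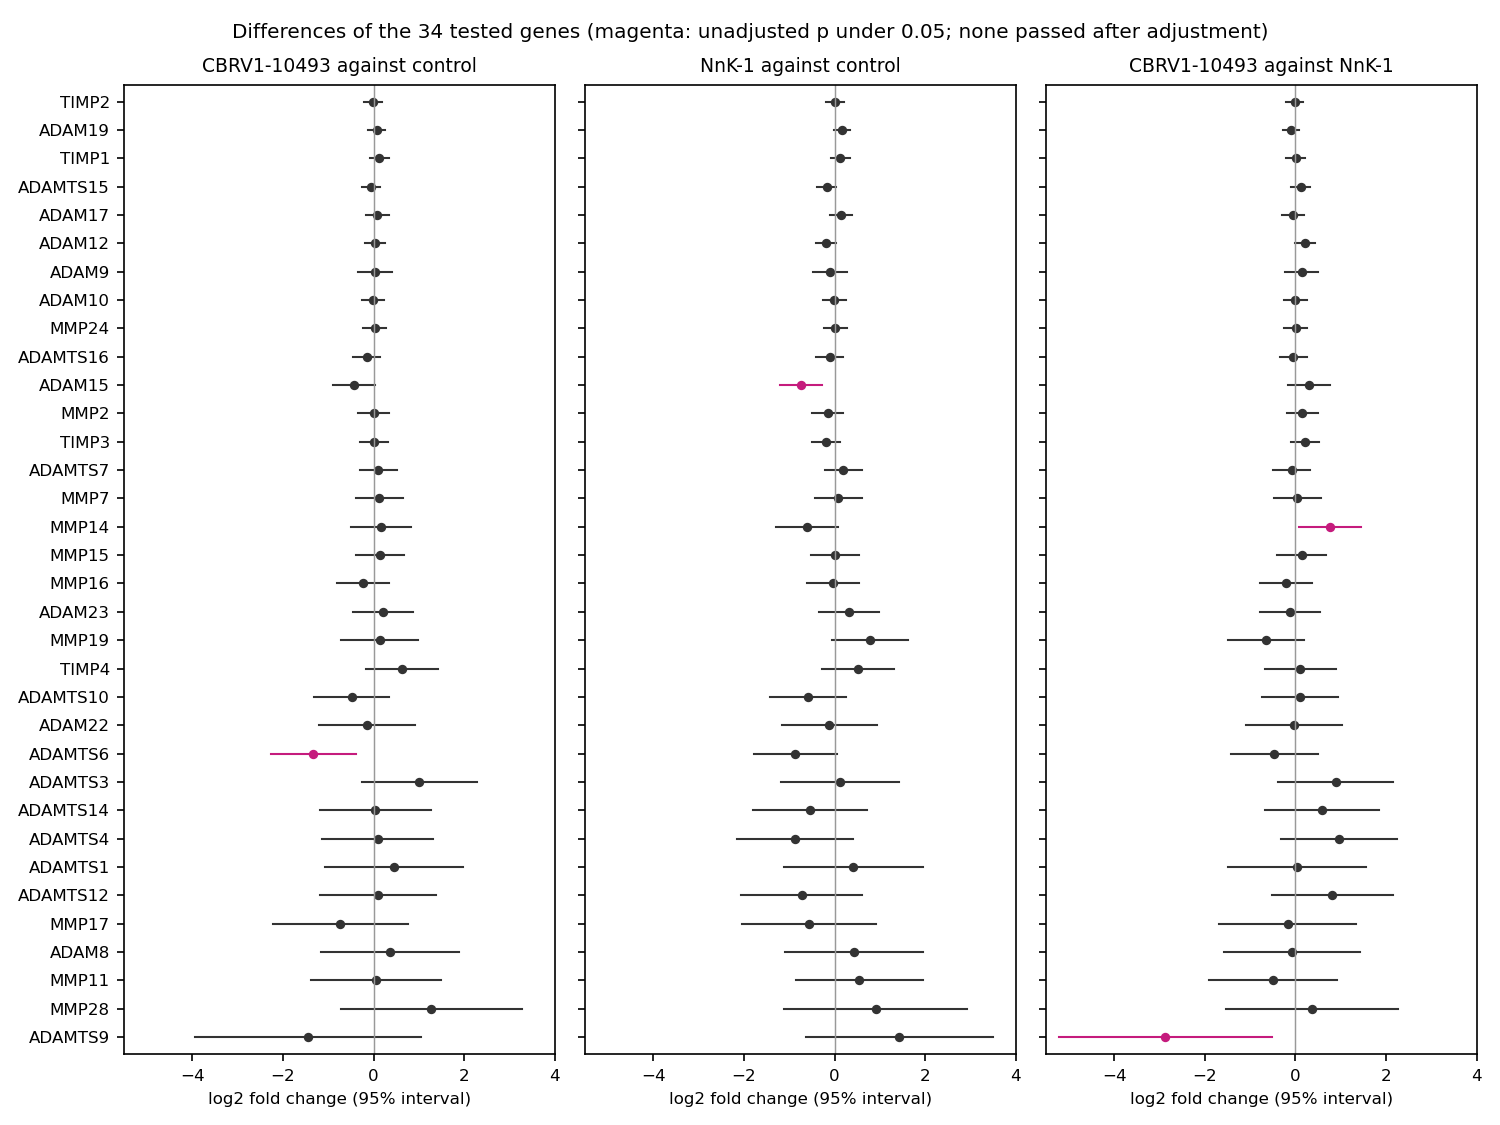
log2 fold changes with 95% intervals of the 34 tested genes, ordered by level, for CBRV1-10493 against control, NnK-1 against control and CBRV1-10493 against NnK-1. Intervals widen from about 0.2 on either side for TIMP2 to over 2 for ADAMTS9, and magenta marks the 4 intervals that exclude 0 (ADAMTS6, ADAM15, and MMP14 with ADAMTS9), none of which passed after adjustment.

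Both peptides were given at 200 nM for 48 h, and for CBRV1-10493 against NnK-1 no tested gene of the 34 passed an adjusted p of 0.05 with edgeR's quasi-likelihood test, where 0% of all tested genes passed. An unadjusted p under 0.05 was found for 2 genes, where 4.31% of all tested genes had one (1.96% higher and 2.35% lower), and DESeq2 and limma-voom called none of the 34. MMP14, the membrane-bound collagenase that activates proMMP2, had 137, 160 and 234 reads in CBRV1-10493 libraries, against 173, 61 and 77 reads in NnK-1 libraries, with 233, 156 and 113 reads in control libraries. NnK-1 replicate 1 lay inside the CBRV1-10493 range, so the groups overlapped. The log2 fold change was 0.76 (95% interval 0.08 to 1.44) with an adjusted p of 0.994 from edgeR's quasi-likelihood test, and leaving out each library in turn gave values between 0.51 and 1.28. Against control MMP14 had a log2 fold change of 0.16 in CBRV1-10493 (95% interval -0.51 to 0.82) and of -0.61 in NnK-1 (-1.29 to 0.07). The NnK-1 value was -0.26 without control replicate 1 and -1.12 without NnK-1 replicate 1.

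ADAMTS9, a protease of versican and aggrecan, had 0, 1 and 4 reads in CBRV1-10493 libraries, against 11, 22 and 4 reads in NnK-1 libraries, with 2, 11 and 2 reads in control libraries. CBRV1-10493 replicate 3 and NnK-1 replicate 3 were level at 4 reads, and the log2 fold change of -2.87 (95% interval -5.22 to -0.51, adjusted p = 0.994 with edgeR) rests on 42 reads. Without CBRV1-10493 replicate 3 it was -4.39, and without NnK-1 replicate 2 it was -2.06. ADAM12 followed with a log2 fold change of 0.21 (95% interval -0.01 to 0.43, adjusted p = 0.994 with edgeR), and every CBRV1-10493 library was above every NnK-1 library. Without CBRV1-10493 replicate 2 its log2 fold change was 0.10.

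For the other 5 of the 6 most abundant genes the intervals between the peptides were also narrow. The log2 fold change of CBRV1-10493 against NnK-1 was -0.02 for TIMP2 (95% interval -0.21 to 0.18), -0.10 for ADAM19 (-0.28 to 0.09) and 0.01 for TIMP1 (-0.21 to 0.22). It was 0.12 for ADAMTS15 (-0.09 to 0.32) and -0.05 for ADAM17 (-0.30 to 0.20). Intervals that include 0 do not show that the peptides act alike. They bound a difference in these 5 genes to at most 0.32 on the log2 scale. Groups did not overlap for 5 of the 34 genes, where 8.81% of all tested genes did not overlap. ADAM12, ADAMTS4 and ADAMTS14 were the 3 higher in CBRV1-10493, where 4.42% of all tested genes were, and ADAMTS9 and ADAMTS6 were the 2 lower, where 4.39% were. ADAMTS9 counts among these on TMM-scaled CPM only, by the tie at 4 reads. The median log2 fold change of the 34 genes was 0.02, against 0.001 over all tested genes. With each library left out in turn and the filter run again, the median of the 35 or 36 members that passed lay between -0.01 and 0.09.

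**Figure D4:**
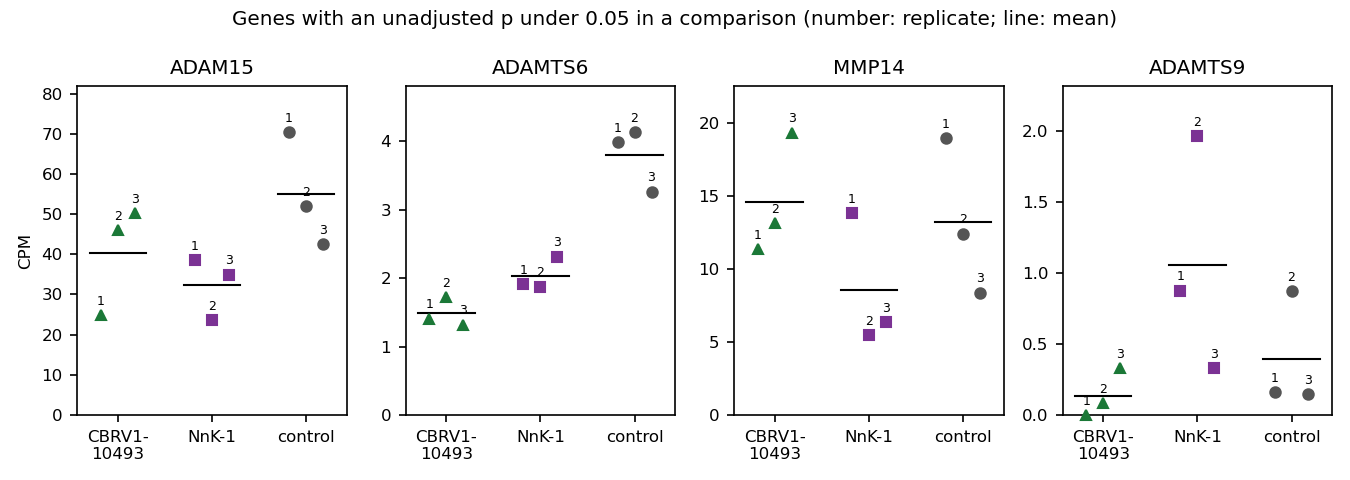
CPM in each library (numbers are replicates, lines are group means) for ADAM15, ADAMTS6, MMP14 and ADAMTS9, the 4 genes with an unadjusted p under 0.05 in a comparison. ADAMTS6 is lower in all 6 peptide libraries than in all 3 control libraries, ADAM15 is highest in control replicate 1 at 70.5 CPM, and ADAMTS9 stays under 2 CPM.

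Some members were highest in the library of each group with the lowest score on the first principal component. ADAM9, ADAM15, MMP2, MMP14 and TIMP4 were highest in CBRV1-10493 replicate 3, NnK-1 replicate 1 and control replicate 1, which were those libraries. These are 5 of the 34 tested members, or 14.7%, against 8.02% of all tested genes, and ADAM19 was lowest in the same 3 libraries, as 1 of 34 members, or 2.94%, against 7.17% of all tested genes. The component was computed from all tested genes, these members included, and took 19.7% of the variance. The loadings of MMP14, ADAM15, ADAM9, MMP2 and TIMP4 were at the 1.84, 3.64, 9.97, 24.9 and 40.2 percentiles of all tested genes, and that of ADAMTS9 at the 99.6 percentile. The part of this component in the differences of ADAM15, MMP14 and ADAMTS9 between groups was not tested. NnK-1 replicate 2, with the highest score, had the lowest level of ADAM15, ADAM9 and MMP14 among the 9 libraries. Without NnK-1 replicate 2 and CBRV1-10493 replicate 1, no member passed an adjusted p of 0.05 in any comparison.

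**Figure D5:**
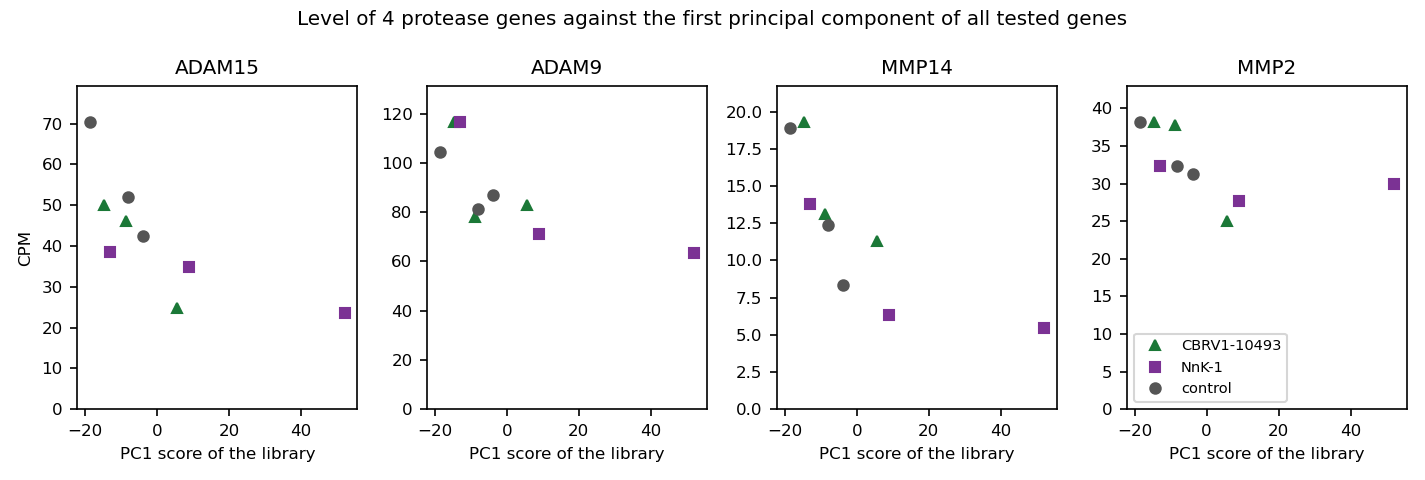
CPM of ADAM15, ADAM9, MMP14 and MMP2 (vertical axes from 0) against the score of each library on the first principal component of all tested genes (horizontal axis, no unit). The library with the lowest score in each group has the highest level of each gene, and NnK-1 replicate 2 lies alone at 52.1.

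Genes that act with these proteases were described from lists chosen with earlier results of these data known, and no gene of any list passed an adjusted p of 0.05 in any comparison with edgeR's quasi-likelihood test. An unadjusted p under 0.05 was found for 7.33% of all tested genes in NnK-1 against control, 2.89% in CBRV1-10493 against control and 4.31% in CBRV1-10493 against NnK-1, the background for the counts that follow. Of 12 genes of plasminogen activation and its inhibitors, 8 were tested. ANXA2, which binds plasminogen and its tissue activator at the surface, averaged 3920, 4237 and 3557 CPM over CBRV1-10493, NnK-1 and control libraries. PLAU, which encodes urokinase, averaged 348, 328 and 315 CPM over the same groups, and PLG itself had no read. In NnK-1 against control 2 of the 8 had an unadjusted p under 0.05 (7.33% of all tested genes), ANXA2 with a log2 fold change of 0.28 and PLAUR, the urokinase receptor, with -0.32. In CBRV1-10493 against NnK-1 1 of the 8 did, PLAUR with 0.35 (4.31% of all tested genes). In CBRV1-10493 against control none of the 8 did, and the 3 median log2 fold changes of this list lay between -0.01 and 0.04.

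Of 15 genes that activate, hold or block MMPs, 12 were tested and none had an unadjusted p under 0.05 in any comparison. CD44, which can dock MMP9 at the surface, averaged 1177, 1148 and 1130 CPM over CBRV1-10493, NnK-1 and control libraries, and CAV1 514, 565 and 535 CPM. FURIN, which removes the propeptide of membrane-type MMPs and many ADAMs, averaged 128, 136 and 136.5 CPM, and RECK, a membrane-anchored inhibitor, 9.10, 7.71 and 8.10 CPM over the same groups.

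All 10 partners of ADAM10 and ADAM17 were tested. FRMD8, which stabilises the rhomboid partner of ADAM17 at the surface, averaged 301, 381 and 302 CPM over CBRV1-10493, NnK-1 and control libraries. Its log2 fold change was 0.37 in NnK-1 against control and -0.35 in CBRV1-10493 against NnK-1, the smallest p-values of this list in both comparisons, each under 0.05 before adjustment. TSPAN5, a tetraspanin that guides ADAM10, had -0.33 in CBRV1-10493 against NnK-1, also under 0.05 before adjustment. These are 1 of 10 in NnK-1 against control (7.33% of all tested genes) and 2 of 10 in CBRV1-10493 against NnK-1 (4.31%). None of the 10 was under 0.05 in CBRV1-10493 against control. PDIA6, a disulfide isomerase that acts on ADAM17, was the most abundant of the list at 714, 676 and 722 CPM over the same groups. RHBDF1 and RHBDF2, the rhomboid partners themselves, averaged 31.3 and 10.4 CPM in CBRV1-10493 libraries, 33.2 and 9.55 CPM in NnK-1 libraries and 31.4 and 7.99 CPM in control libraries.

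Of 27 known substrates of ADAM shedding, 22 were tested. APP and ALCAM were the most abundant, at 435 and 206 CPM in CBRV1-10493 libraries, 401 and 187 CPM in NnK-1 libraries and 442 and 208 CPM in control libraries. An unadjusted p under 0.05 was found in NnK-1 against control for 1 of the 22 (7.33% of all tested genes), MICA, a ligand of a killer-cell receptor, with a log2 fold change of 0.28. In CBRV1-10493 against control it was found for 1 of the 22 (2.89% of all tested genes), NRG1, a neuregulin, with 0.56, and in CBRV1-10493 against NnK-1 for none.

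Of 19 matrix substrates, 14 were tested. SPARC averaged 2063, 1954 and 2118 CPM over CBRV1-10493, NnK-1 and control libraries, COL1A2 748, 659.5 and 756 CPM and VCAN, the versican cut by ADAMTS15, 545, 513 and 549 CPM. The other large brain proteoglycans were nearly absent, with 52 reads of BCAN, 5 of NCAN and none of ACAN over 9 libraries. FN1, fibronectin, had a log2 fold change of -0.25 in NnK-1 against control and was the 1 matrix gene of 14 with an unadjusted p under 0.05 in any comparison (7.33% of all tested genes in that one).

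Of 20 related metalloprotease genes outside the rule for members, 19 are in the files and 7 were tested. MMP23A and MMP23B lie outside because their symbols end in a letter, and the protease of MMP23 carries a domain of the ShK kind, the fold after which the peptides are described. MMP23A, a near copy counted under its own symbol, had 44 reads over 9 libraries and MMP23B had none. ECE1 and BMP1, a procollagen C-proteinase, averaged 199.6 and 56.2 CPM in CBRV1-10493 libraries, 185 and 54.1 CPM in NnK-1 libraries and 207 and 59.3 CPM in control libraries. MME, which encodes neprilysin, had 9, 11 and 11 reads in CBRV1-10493 libraries and 6, 4 and 23 reads in NnK-1 libraries, against 0, 0 and 5 reads in control libraries. Its fitted log2 fold changes were 2.65 for CBRV1-10493 and 2.76 for NnK-1 against the shared control, at an edgeR adjusted p of 1.00 and 0.62, and they rest on 69 reads. MME was the 1 gene of the 7 with an unadjusted p under 0.05 in each of these comparisons, where 2.89% and 7.33% of all tested genes had one. PAPPA, which cuts IGF-binding proteins, had 0.40 in CBRV1-10493 against NnK-1 with an unadjusted p under 0.05, as 1 of the 7 (4.31% of all tested genes).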

How the data were processed

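RNA of U-373MG cells was made into QuantSeq 3′ libraries and read as single ends of 75 bp, per the labels' protocols and the design text. Reads were aligned with Bowtie2 to hg19 and bedtools was used, per the submitters' processing notes, while the sources used here give neither versions nor the strand rule of counting. The deposited files hold raw counts per gene entry, and the authors compared groups with edgeR, TMM factors and CPM, per the design text. Here the 25737 entries were summed to 24462 symbols (286 symbols stood on 1561 entries). Genes were kept with filterByExpr (minimum count 10, minimum total 15), scaled by TMM and tested with edgeR 4.0.16 in R 4.3.3 (glmQLFit and glmQLFTest, all 9 libraries in 1 fit on the 3 groups). P-values were adjusted by Benjamini-Hochberg over 13676 genes per comparison, with a threshold of 0.05. Intervals of 95% come from the fit's standard error. Groups were called not overlapping on TMM-scaled CPM. Library totals ran between 11203094 and 13491075 counts, and limits set from 0 reads take in no error but that of counting.

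The members and the lists of related genes were chosen with earlier results of these data known. Every tested member was named with its level, values per library were given for a mean of 20 CPM or more or an unadjusted p under 0.05 in a comparison, and fold changes for the 6 most abundant members and the 3 smallest p-values per comparison. Of the lists, up to 3 genes with the smallest p and 2 of the highest level were named, and PLAU, PLG, FURIN, RECK, RHBDF1, RHBDF2, large proteoglycan genes and the MMP23 symbols were added for their role after values were seen. A few genes that this rule would name are not reported here. Alternatives used limma 3.58.1 and DESeq2 1.42.0, other scalings and filters, single libraries left out and the replicate number as a block. The procedure was run on simulated data with a pass mark only on the error of fold changes. Its power to find differences is not reported here. Figures were drawn with matplotlib 3.10.9.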

Additional observations from a re-analysis of the deposited data

How the results depend on the processing

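No member passed an adjusted p of 0.05 in any comparison under the alternatives run, except ADAM15 in NnK-1 against control without the filter on low counts (1 member), where the prior degrees of freedom were infinite. In that comparison DESeq2 left 25 of the 34 without an adjusted p, with and without the filter. At an unadjusted p of 0.05, 1 member passed for NnK-1 against control, 1 for CBRV1-10493 against control and 2 for CBRV1-10493 against NnK-1. Over all genes, NnK-1 against control gave 0 calls in the edgeR quasi-likelihood fit, 74 without the filter, 8 with edgeR's exact test, 4 with DESeq2 without the filter, 3 with DESeq2 on the filtered genes and 1002 at an unadjusted p of 0.05. CBRV1-10493 against control gave 0, with 6 without the filter, 2 with the exact test and 395 unadjusted, and CBRV1-10493 against NnK-1 gave 0, with 1 without the filter and 589 unadjusted. The causes of these differences in count were not tested.

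Log2 fold changes that turned sign were all small in the fit as reported. TIMP2 in NnK-1 against control was -0.0088 with upper-quartile factors, -0.019 with library totals, -0.0005025 with limma-voom and -0.038 without both libraries that lay apart. TIMP2 in CBRV1-10493 against NnK-1 was 0.0016 with upper-quartile factors and 0.017 without both libraries that lay apart, a setting chosen after seeing the data. Under that setting ADAMTS15 was 0.0081 and ADAM17 was -0.032 in CBRV1-10493 against control. TIMP1 in CBRV1-10493 against NnK-1 was -0.000086 with DESeq2 size factors, -0.00043 with DESeq2 without the filter, -0.000027 with DESeq2 on the filtered genes and -0.0010 with the highest entry per symbol.

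Leaving out each library in turn, TIMP2 ranged from -0.057 to 0.114 in NnK-1 against control, from -0.060 to 0.024 in CBRV1-10493 against control and from -0.124 to 0.048 in CBRV1-10493 against NnK-1. In CBRV1-10493 against control, ADAMTS15 ranged from -0.106 to 0.0081, ADAM17 from -0.032 to 0.218, ADAM12 from -0.086 to 0.099 and MMP14 from -0.094 to 0.501. In CBRV1-10493 against NnK-1, TIMP1 ranged from -0.082 to 0.115 and ADAM17 from -0.171 to 0.080. ADAM15 ranged from -0.89 to -0.52 in NnK-1 against control, from -0.61 to -0.18 in CBRV1-10493 against control and from 0.12 to 0.56 in CBRV1-10493 against NnK-1. TIMP1 ranged from 0.01 to 0.21 and ADAM17 from 0.06 to 0.19 in NnK-1 against control, and ADAM19 from 0.02 to 0.10 in CBRV1-10493 against control. In CBRV1-10493 against NnK-1, ADAMTS15 ranged from 0.07 to 0.19, ADAM12 from 0.10 to 0.28 and ADAM19 from -0.15 to -0.05. On TMM-scaled CPM and with the highest entry per symbol, the mean sums of the 4 families moved by less than the SD between libraries. Leaving out a library of 3 cannot move a group mean by as much as its SD, so that setting is no check of these sums. The protease sum in NnK-1 libraries was 1251 on TMM-scaled CPM, against 1240 CPM on library totals. A filter of 5 CPM in 3 libraries kept only 19 of the 34 tested members. The others, ADAMTS6, ADAMTS9, MMP19 and ADAMTS3 among them, could not be fitted under it.

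With the replicate number as a block, 0 members and 0 genes passed in each comparison, ADAM15 had a log2 fold change of -0.75 in NnK-1 against control and ADAMTS6 of -1.34 in CBRV1-10493 against control. Between groups, libraries with the same number correlated in their deviations at between -0.057 and 0.132, and those with different numbers at between -0.0933 and 0.0975. The highest value was that of control replicate 1 with NnK-1 replicate 1. Weak correlations cannot show whether the numbers pair the samples. The lowest tested member, ADAMTS9 with 57 reads, had an interval of -3.93 to 1.06 in CBRV1-10493 against control, and the share of depth in that width was not tested.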
